A study of Mus musculus with 36 samples.

Results

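Atf4, Ddit3 and Hspa5, 3 genes of the integrated stress response, were followed through hyperosmotic stress and recovery in mouse embryonic fibroblasts, connective tissue cells taken from embryos. The genes were chosen by transcript identifier: ENSMUST00000109605 for Atf4 (350 codons with the stop), ENSMUST00000026475 for Ddit3 (169 codons) and ENSMUST00000028222 for Hspa5 (656 codons). All 3 were listed, among 11037 transcripts listed in at least 1 footprint library and 17469 listed in at least 1 RNA library. All 3 also passed the filter on low values, a mean of at least 2 over the 18 libraries of an assay. Ddit3 passed it in footprints also without the 4 libraries of recovery after the long stress, with a mean scaled value of 2.53 over the other 14.

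The cells were of the strain C57BL/6J, the labels name no other genotype, and they do not say whether the cells were primary or an established line. Sorbitol, a sugar alcohol, was added to the medium to raise its osmolarity. Besides unstressed cells, which stayed in normal medium, 2 milder stresses lasted 2 h, at 500 and at 600 mOsm. The strongest, 700 mOsm, lasted 15 min (the short stress) or 2 h (the long stress). Cells were taken at the end of each, and again once normal conditions had returned for 15 min (early recovery) or for 2 h (late recovery), which makes 9 conditions. Each condition had 2 ribosome footprint libraries, which count mRNA fragments covered by ribosomes, and 2 libraries of cytoplasmic RNA. The comparisons ask how translation and mRNA differ with the strength and duration of the stress and once it has ended.

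In the integrated stress response, protein kinases phosphorylate the initiation factor eIF2. Translation of most mRNAs then falls, while the main coding sequence of Atf4, which lies behind short upstream reading frames, is translated more. ATF4 is a transcription factor that turns on genes of amino acid supply and also Ddit3, whose product CHOP is a transcription factor linked to cell death under lasting stress. Hspa5 encodes BiP, the main Hsp70 chaperone of the endoplasmic reticulum and a classical target of the unfolded protein response.

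The genes lie on GRCm38.p6 at chr15:80255184-80257545 (Atf4), chr10:127290793-127296291 (Ddit3) and chr2:34772090-34776529 (Hspa5). The lengths behind the footprint values were the coding lengths of 1050, 507 and 1968 nt, so a footprint value is reads per kilobase of the main coding sequence. For the RNA values they were transcript lengths of 1724, 890 and 3672 nt. The 120 bases before each RefSeq start site are given for the element by which the unfolded protein response acts on chaperone genes. Exact matches to that element are in capitals:
Hspa5, chr2:34771970-34772089, + strand: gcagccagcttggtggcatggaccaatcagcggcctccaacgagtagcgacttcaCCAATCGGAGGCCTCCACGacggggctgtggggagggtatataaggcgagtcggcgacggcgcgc
Ddit3, chr10:127290673-127290792, + strand: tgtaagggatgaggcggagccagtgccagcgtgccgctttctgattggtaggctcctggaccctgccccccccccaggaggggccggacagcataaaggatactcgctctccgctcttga
Atf4, chr15:80255064-80255183, + strand: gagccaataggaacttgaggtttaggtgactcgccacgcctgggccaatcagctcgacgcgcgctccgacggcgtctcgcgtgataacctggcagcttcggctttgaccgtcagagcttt
The capitals mark an exact ER stress response element (CCAAT, 9 bases of any kind, CCACG), at chr2:34772025-34772043 with its first base at -65 from the start site. Both strands of RefSeq windows from 250 bases before to 50 after a start site were searched. Of 32851 windows, 39 (0.119%) held this element, and among the 3 genes only Hspa5 did. The related ERSE-II (ATTGG, 1 base, CCACG) was in 12 windows and the C/EBP-ATF element (TGATGNAAT), to which ATF4 binds with a partner, in 317 (0.965%). Neither was in the windows of the 3 genes. Only exact matches were searched, so near matches are not marked. For example, the Ddit3 stretch holds cgtgc, 9 bases and attgg, which on the other strand differs from the ER stress response element by 1 base. A match is a description of letters, and a missing one says nothing of a factor's action there or elsewhere in the gene.

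Reads on listed transcripts numbered 734083 to 9124787 per footprint library, with the fewest at 700 mOsm, and 6851958 to 55262396 per RNA library. Footprint replicates were so close that a condition counts as 1 sample. Their values therefore carry no SD and no p-value, and the 95% intervals given are exact binomial ones that cover counting error only. RNA has n = 2 per condition. The labels do not say that replicates were separate cultures, so a p-value reflects library spread that may be technical. A "scaled" value is divided by the library's factor relative to the typical abundant transcript. Against unstressed cells this scaling moves the footprints by 0.56 on the log2 scale for the short stress and by 0.47 for the long stress, so folds at 700 mOsm are also given as deposited. A lower value can come from fewer cells with the mRNA or from less of it per cell, which cannot be told apart in bulk samples. A lower footprint value can also come from fewer ribosomes on each mRNA. All values are relative to the other transcripts of a library, so a change shared by all transcripts does not show in them. The RNA libraries labelled late recovery after the short stress and those labelled early recovery after the long stress carry each other's condition in their file names. They were kept as labelled, and values that rest on them are given beside those of the other label.

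**Figure D1:**
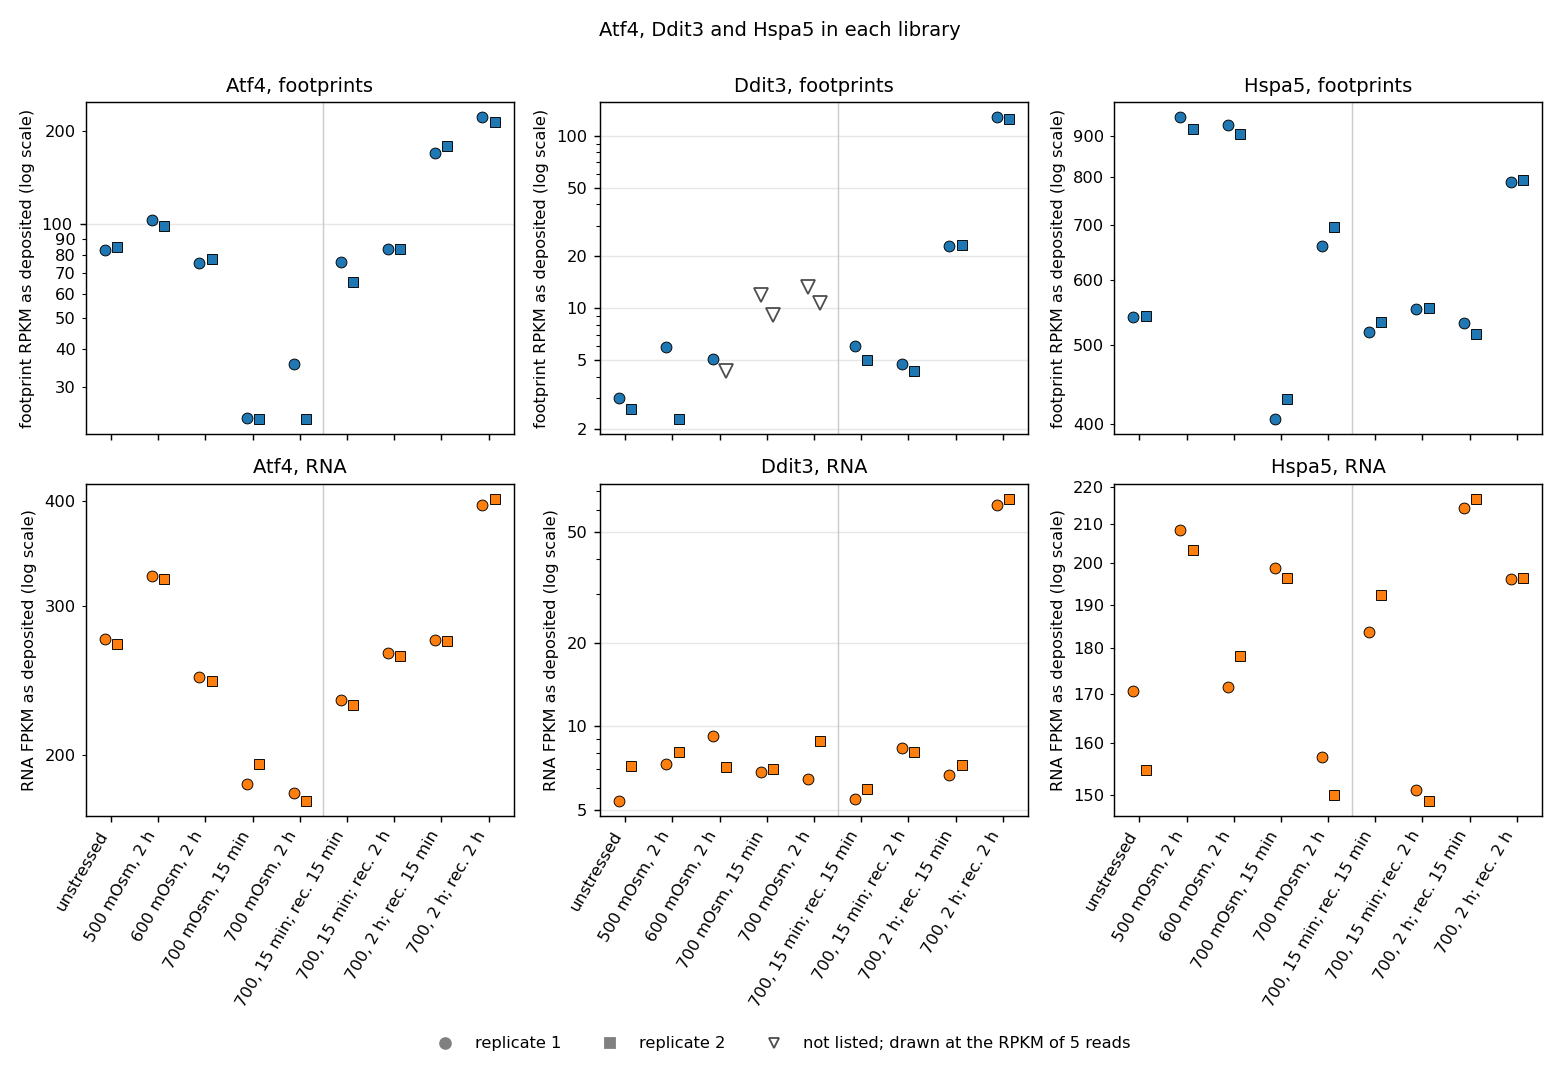
Deposited footprint RPKM (top, blue) and RNA FPKM (bottom, orange) of Atf4, Ddit3 and Hspa5 in every library, on log scales whose ranges differ between panels, with circles for replicate 1 and squares for replicate 2. Open triangles stand at the RPKM of 5 reads in libraries that do not list Ddit3, and the grey line separates stress from recovery. In late recovery from the long stress the Ddit3 footprints stand at 125 and 128 RPKM, against 2.60 and 2.99 in unstressed cells.

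Atf4 footprints were lowest at 700 mOsm and highest after the long stress was removed. The 2 unstressed libraries had 82.8 and 84.7 footprint RPKM. The 500 mOsm libraries had 104 and 98.7, above the unstressed pair, and the 600 mOsm libraries 75 and 77.4, below it. The short stress gave 24.0 and 23.8 RPKM and the long stress 35.8 and 23.8, all below every other library. After the short stress Atf4 had 75.9 and 65.2 RPKM at early recovery and 83.4 and 83.7 at 2 h. As deposited the 2 h pair lies inside the unstressed range. On scaled values it lies just above that range, at 79.3 to 79.7 against 76.6 to 78.8. After the long stress Atf4 had 170 and 179 RPKM at 15 min and 221 and 212 at 2 h, with no overlap with any other condition.

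On the scaled values Atf4 footprints were at 0.421 times the unstressed level in the short stress (95% interval 0.309 to 0.562, from 48 reads) and at 0.484 times in the long stress (0.359 to 0.641, from 51 reads). As deposited these were 0.285 and 0.348. Of all 8849 transcripts kept for footprints, 48.9% and 47.8% were at least 2-fold lower in these stresses. The log2 changes of Atf4, -1.22 and -1.03, stood beside medians of -0.92 and -0.91 over all transcripts. Lower changes than that of Atf4 were found in 45.6% and 47.1% of transcripts. These shares and medians count a transcript that a library does not list as 0, and 3107 and 2654 of the 8849 were not listed in all 4 libraries of the comparison. Over the 5742 and 6195 listed in all 4, a choice made after seeing the data that leaves out transcripts too low to be listed, the medians were 0.08 and -0.19. Among these Atf4 lay lower, with 20% and 27.7% of transcripts below it and 24.1% and 28.4% at least 2-fold lower. Its place among all transcripts at 700 mOsm therefore depends on how unlisted ones are counted. Between the short and the long stress Atf4 did not differ beyond counting error (1.15-fold, 0.759 to 1.74; 1.22-fold as deposited), while 22.0% of transcripts were at least 2-fold higher in the long stress, or 10.5% of those listed in all 4 libraries. In the long stress the log2 change of Atf4 was -0.73 with replicate 1 alone (28 reads) and -1.32 with replicate 2 alone (23 reads). Neither moved from the mean of both by more than counting error.

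In recovery from the long stress Atf4 footprints were 2.02-fold above unstressed cells at 15 min (1.85 to 2.20), where 1.79% of all transcripts were at least 2-fold higher. At 2 h they were 2.63-fold higher (2.46 to 2.82), where 3.89% were. Its change ranked 156 of 8849 at 15 min and 199 at 2 h. Against the long stress itself Atf4 was 4.17-fold higher in early recovery (3.14 to 5.64; 5.97-fold as deposited) and 5.44-fold in late recovery (4.12 to 7.33; 7.42-fold as deposited), where 42.3% and 43.1% of transcripts were at least 2-fold higher (of those listed in all 4 libraries, 22.4% and 23.4%). Early recovery from the short stress stood 1.95-fold (1.45 to 2.68; 2.94-fold as deposited) above that stress, with 48.3% of transcripts at least 2-fold higher (23.4% of those listed). After the long stress the late level was 1.31-fold (1.21 to 1.41) the early one. At equal recovery times, the long stress left Atf4 footprints 2.45-fold (2.20 to 2.73) above the short stress at 15 min and 2.57-fold (2.41 to 2.75) above it at 2 h. After the short stress alone they were 0.823 times the unstressed level at 15 min (0.744 to 0.910) and 1.02 times at 2 h (0.95 to 1.10).

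Atf4 RNA was also lowest at 700 mOsm and highest in late recovery from the long stress, over a narrower range than the footprints. Unstressed cells had 274 and 271 FPKM, 500 mOsm 326 and 323, and 600 mOsm 247 and 245. The short stress gave 185 and 195 FPKM and the long stress 180 and 177, the lowest RNA levels of Atf4. Recovery from the short stress gave 232 and 229 FPKM at 15 min, and in the libraries labelled 2 h 264 and 262. Those labelled early recovery after the long stress had 274 and 273 FPKM, and the late recovery from that stress gave 396 and 402, the highest level. On scaled values the library ranges of neighbours in the order of the 9 conditions did not overlap.

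In limma's test Atf4 RNA fell in the short stress (log2 change -0.46, SE 0.05, adjusted p = 4.12e-06) and in the long stress (-0.52, SE 0.06, adjusted p = 3.29e-06). Of the 9275 RNAs tested, 30.5% and 31.0% fell in these comparisons. It rose in late recovery from the long stress (0.58, SE 0.05, adjusted p = 3.41e-07), where 13.9% of RNAs rose. It also rose at 500 mOsm (0.26, adjusted p = 0.0114, with 1.55% of RNAs rising) and fell in early recovery from the short stress (-0.23, adjusted p = 0.00944, with 2.59% falling). Both of these calls were lost when either unstressed library was left out, with adjusted p between 0.0757 and 0.095. At 600 mOsm, where 3.87% of RNAs rose and 9.11% fell against unstressed cells, Atf4 RNA was not past the threshold (-0.14, adjusted p = 0.112), but was below 500 mOsm (-0.40, adjusted p = 3.32e-06), as were 10.4% of RNAs. From 600 to 700 mOsm at 2 h it fell by a further 0.38 (adjusted p = 3.82e-06), as did 33.0%. The libraries labelled 2 h after the short stress and 15 min after the long stress did not pass the threshold for Atf4, at -0.03 (adjusted p = 0.780) and 0.04 (adjusted p = 0.70). In the first of these 4.92% of RNAs rose and 8.37% fell.

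Ddit3 had few footprints in every condition except recovery from the long stress, and little mRNA in every condition as labelled except the late recovery from it. In unstressed cells it had 2.99 and 2.60 footprint RPKM, from 11 and 10 reads. At 500 mOsm the values were 5.96 and 2.28 RPKM, and at 600 mOsm 5.10 in replicate 1, while replicate 2 did not list the gene. None of the 4 libraries at 700 mOsm listed it. A footprint list holds almost no transcript under 5 reads, and in those 4 libraries 5 reads of Ddit3 amount to 9.14 to 13.2 RPKM, above its unstressed level. At the unstressed rate 0.765 to 1.04 reads were to be expected there, so neither a fall nor a moderate rise of Ddit3 was detectable during the 700 mOsm stress at this depth.

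After the short stress Ddit3 had 6.00 and 5.00 footprint RPKM at early recovery and 4.74 and 4.33 at 2 h. These were 1.92 times the unstressed level (95% interval 0.9996 to 3.70) and 1.66 times (0.961 to 2.96), from 21 and 41 reads. Both intervals include the unstressed level, the first only just, so at this depth a rise was neither established nor excluded. With 1 added to each value, the log2 changes of Ddit3, 0.74 and 0.57, ranked 133 and 186 of 8849. Few transcripts were at least 2-fold higher in these conditions, 0.644% and 0.689%. After the long stress it had 22.9 and 23.3 RPKM at 15 min, from 29 and 28 reads. At 2 h it reached 128 and 125 RPKM, from 299 and 293 reads, and no other condition came near these levels. The scaled change was 8.0-fold at 15 min (4.78 to 13.9) and 46.0-fold at 2 h (29.8 to 75). Among 8849 transcripts the log2 change of Ddit3, 2.60 and 5.07 with 1 added to each value, ranked 14 and 4. At 2 h the footprints were 5.75-fold (4.38 to 7.69) those at 15 min, where 4.72% of transcripts were at least 2-fold higher. At equal times of recovery Ddit3 stood 4.16-fold (2.48 to 7.22) higher after the long than after the short stress at 15 min, and 27.7-fold (20.2 to 39.0) higher at 2 h. At least 2-fold differences of that direction were found in 1.31% and 3.86% of transcripts.

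**Figure D2:**
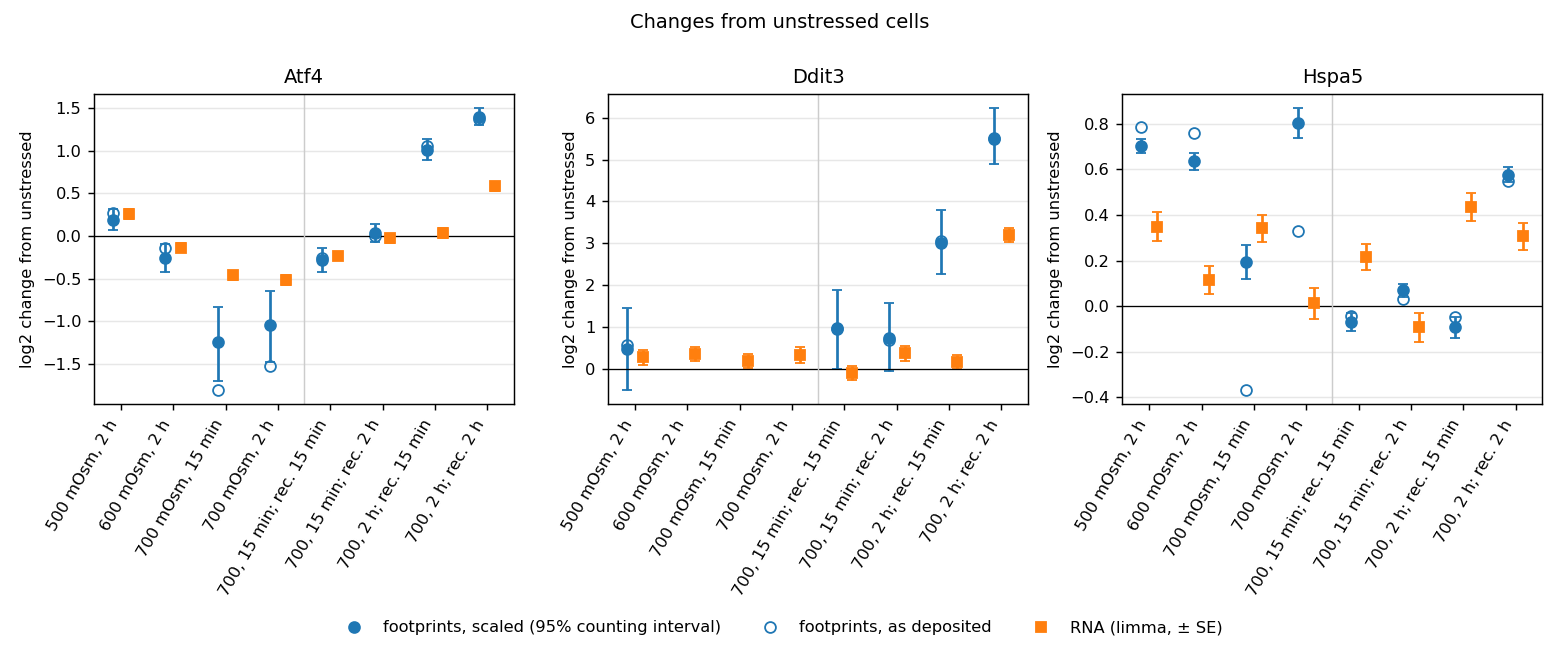
Log2 change from unstressed cells of footprints (filled blue circles, scaled, with 95% counting intervals; open circles, as deposited) and of RNA (orange squares, limma, ± SE, n = 2) in the 8 other conditions, with a y axis of its own for each gene. Ddit3 footprints are left out at 600 mOsm and 700 mOsm, where at least 1 library did not list the gene. In early recovery from the long stress the footprints of Atf4 and Ddit3 are up while their RNA, as labelled, is near 0.

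Ddit3 RNA was low in 8 of the 9 conditions as labelled. Its FPKM were 5.39 and 7.15 in unstressed cells. They were 7.28 and 8.09 at 500 mOsm, then 9.24 and 7.11 at 600 mOsm. The short stress gave 6.80 and 6.98, and the long stress 6.43 and 8.86. Most of these pairs overlapped with their neighbours in the order of levels, and none of these 4 stresses passed limma's test (log2 changes 0.18 to 0.35, adjusted p 0.168 to 0.531). Recovery from the short stress gave 5.47 and 5.95 FPKM at 15 min, and the libraries labelled 2 h gave 8.34 and 8.10. The libraries labelled early recovery after the long stress had 6.64 and 7.23 FPKM. These 3 were also not past the threshold (-0.10, 0.37 and 0.16, adjusted p = 0.789, 0.178 and 0.577).

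In late recovery from the long stress Ddit3 RNA rose to 62.6 and 65.6 FPKM, 64.2 ± 2.32 scaled FPKM (mean ± SD, n = 2) against 6.12 ± 1.22 in unstressed cells. The log2 change was 3.20 (SE 0.16, limma adjusted p = 4.15e-10), rank 22 of 9275 RNAs. Leaving out any 1 library of that comparison gave 3.03 to 3.38. Against the long stress itself the RNA rose by 2.88 (SE 0.13, adjusted p = 2.59e-11), where 42.1% of RNAs rose. In the libraries labelled early recovery the RNA was still at the level of the other conditions, while the footprints were already 8.0-fold above unstressed cells.

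**Figure D3:**
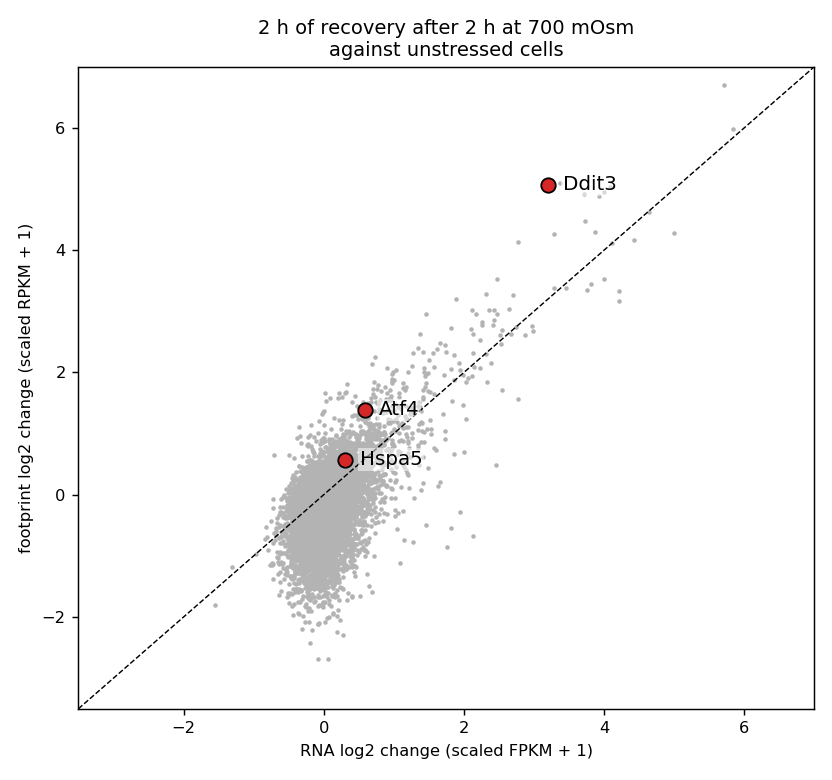
Log2 change in late recovery from the long stress against unstressed cells, RNA on the x axis and footprints on the y axis, each on values scaled and with 1 added. Each grey dot is 1 of 8446 transcripts, red circles are the 3 genes and the dashed line marks equal change. Ddit3 stands at 3.20 and 5.07, Atf4 at 0.58 and 1.39, and Hspa5 at 0.31 and 0.58, all above the line.

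Hspa5 had the highest footprint level of the 3 genes in all 18 libraries, and its highest deposited values were in the milder stresses. On scaled values the order turned, with the long stress highest (844 to 904) and 500 mOsm next (804 to 829). As deposited, unstressed cells had 540 and 541 RPKM. At 500 mOsm it stood at 947 and 917 and at 600 mOsm at 927 and 904. The short stress gave 406 and 429 RPKM and the long stress 660 and 696. Recovery from the short stress gave 518 and 532 RPKM at 15 min and 552 and 554 at 2 h, both close to the unstressed pair without overlapping it. Recovery from the long stress gave 531 and 515 RPKM at 15 min and 789 and 795 at 2 h.

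The scaled footprints of Hspa5 were 1.63-fold higher at 500 mOsm (95% interval 1.59 to 1.66) and 1.55-fold at 600 mOsm (1.51 to 1.60). At least 2-fold higher levels were found in 0.746% of all transcripts at 500 mOsm and in 3.74% at 600 mOsm, and the change of Hspa5 ranked 149 of 8849 at 500 mOsm and 1158 at 600 mOsm. The long stress gave 1.75-fold (1.67 to 1.83), or 1.26-fold as deposited, where Hspa5 ranked 1689 and at least 2-fold higher levels were found in 16.2% of transcripts (22.9% of those listed in all 4 libraries). It stood 1.53-fold (1.43 to 1.63; 1.62-fold as deposited) above the short stress. For the short stress the direction turned with the scaling, 1.14-fold scaled (1.08 to 1.20) and 0.774-fold as deposited. In early recovery from the long stress the scaled level was 0.938 times the unstressed one (0.909 to 0.969) and 0.537 times that of the long stress (0.511 to 0.565; 0.770 as deposited). Against the long stress, 15.9% of all transcripts had a lower change than Hspa5. Of the 6181 listed in all 4 libraries 22.2% did, and 19.1% were at least 2-fold lower. The scaled level of Hspa5 was 1.49-fold above unstressed cells at 2 h (1.46 to 1.53). The 2 h level was 1.59-fold (1.54 to 1.64) that at 15 min. After the short stress it was 0.953 times the unstressed level at 15 min (0.927 to 0.979) and 1.05 times at 2 h (1.03 to 1.07).

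Hspa5 RNA stayed within 149 to 217 FPKM over all 18 libraries. It was 171 and 155 FPKM in unstressed cells, 208 and 203 at 500 mOsm, 171 and 178 at 600 mOsm, 199 and 196 in the short stress and 157 and 150 in the long stress. Recovery from the short stress gave 184 and 192 FPKM at 15 min. Those labelled late recovery after the short stress had 151 and 149, and early recovery after the long stress 214 and 217. These were the lowest and the highest of the 9 condition means, and as deposited the lower pair overlapped with the long stress. In late recovery from the long stress both libraries had 196 FPKM.

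By limma Hspa5 RNA rose at 500 mOsm (log2 change 0.35, SE 0.06, adjusted p = 0.00291) and in the short stress (0.34, SE 0.06, adjusted p = 1.99e-04, where 19.3% of RNAs rose). It rose in late recovery from the long stress (0.31, SE 0.06, adjusted p = 0.00124). The libraries labelled early recovery after the long stress were 0.44 above unstressed cells (adjusted p = 2.57e-04, with 8.09% of RNAs rising), and the libraries of the other label stood at -0.09 (adjusted p = 0.353). In early recovery from the short stress the RNA rose by 0.22 (adjusted p = 0.0315, with 4.39% rising), a call that ended without unstressed replicate 2 (0.14, adjusted p = 0.451) and without replicate 2 of that recovery (0.18, adjusted p = 0.0804). The call at 500 mOsm also ended without unstressed replicate 2 (0.28, adjusted p = 0.0707). At 600 mOsm (0.12, adjusted p = 0.245) and in the long stress (0.01, adjusted p = 0.893, where 18.7% of RNAs rose) Hspa5 RNA did not pass the threshold. It was lower at 600 than at 500 mOsm (-0.23, adjusted p = 0.00162).

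The signed change in RNA from stress to late recovery was more positive for the long than for the short stress in all 3 genes, while for Hspa5, as labelled, the change after the short stress was of the opposite sign and the larger in size. For Ddit3 it was 2.88 on the log2 scale after the long stress and 0.19 after the short one, a difference of 2.68 (SE 0.17, limma adjusted p = 4.58e-09). For Atf4 the changes were 1.10 and 0.43, a difference of 0.67 (SE 0.05, adjusted p = 5.68e-08). For Hspa5 they were 0.29 and -0.43, a difference of 0.73 (SE 0.06, adjusted p = 9.51e-08). A positive difference passed the test in 32.8% of RNAs. The short arm rests on the libraries labelled late recovery after the short stress. With the libraries of the other label in their place, the difference was 2.89 for Ddit3, 0.60 for Atf4 and 0.20 for Hspa5 (adjusted p = 3.45e-09, 3.77e-07 and 0.0181).

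The ratio of footprint to RNA level, a measure of how many ribosomes an mRNA carries per length, was low for Atf4 and high for Hspa5 in unstressed cells. Its unit is arbitrary, since the assays were scaled apart. The ratios printed are of means with nothing added, while their log2 changes, shares and ranks are of values with 1 added. On scaled values it was 0.292 for Atf4, lower than that of all but 1.5% of 8446 transcripts, 0.424 for Ddit3 (5.1% lower) and 3.16 for Hspa5 (84.5% lower). The Atf4 ratio was 0.278 at 500 mOsm and 0.268 at 600 mOsm. It was 0.170 in the short stress and 0.206 in the long stress, where the log2 change from unstressed cells, -0.76 and -0.51, stood beside medians of -0.82 and -0.68 over all transcripts, with unlisted footprints as 0, and of 0.07 and -0.07 over those listed in all 4 footprint libraries. After the long stress it was 0.575 at early recovery (0.601 with the RNA of the other label) and 0.513 at 2 h. After the short stress it was 0.284 at 15 min and 0.305 at 2 h (0.291 with the RNA of the other label).

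The Ddit3 ratio was 3.0 in early recovery from the long stress (2.54 with the RNA of the other label) and 1.86 after 2 h, against 0.424 unstressed. After the short stress it was 0.894 at 15 min, from 21 footprint reads, and 0.529 at 2 h (0.624 with the RNA of the other label). With 1 added to each value, the log2 change of the Ddit3 ratio from unstressed cells to 2 h after the long stress was 1.86. That was the highest of 8446 transcripts, and the change of Atf4, 0.80, ranked 106. At 15 min the changes were 2.44 and 0.97, with ranks of 12 and 260, beside a median of -0.11 over all transcripts. The Hspa5 ratio was 4.04 at 500 mOsm, 4.53 at 600 mOsm, 2.84 in the short and 5.46 in the long stress. Its log2 changes from unstressed cells ranked 1075, 1251, 3169 and 1518 of 8446 in that order, with unlisted footprints as 0. In the long stress the change was 0.79, or 0.40 as deposited. There 88.3% of transcripts had a lower ratio than Hspa5, against 84.5% in unstressed cells. The Hspa5 ratio was 2.59 in early recovery from the short stress. In late recovery from that stress it was 3.54 as labelled and 2.45 with the RNA of the other label. For early recovery from the long stress it was 2.19 as labelled and 3.17 with the RNA of the other label. As labelled, the first of these 2 conditions lay above the unstressed ratio of 3.16 and the second below it. With the RNA of the other label the first lay below it and the second was level with it. How these 2 conditions stood to the unstressed ratio thus rests on the labels. In late recovery from the long stress the Hspa5 ratio was 3.81. These ratios have no replicate test.

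**Figure D4:**
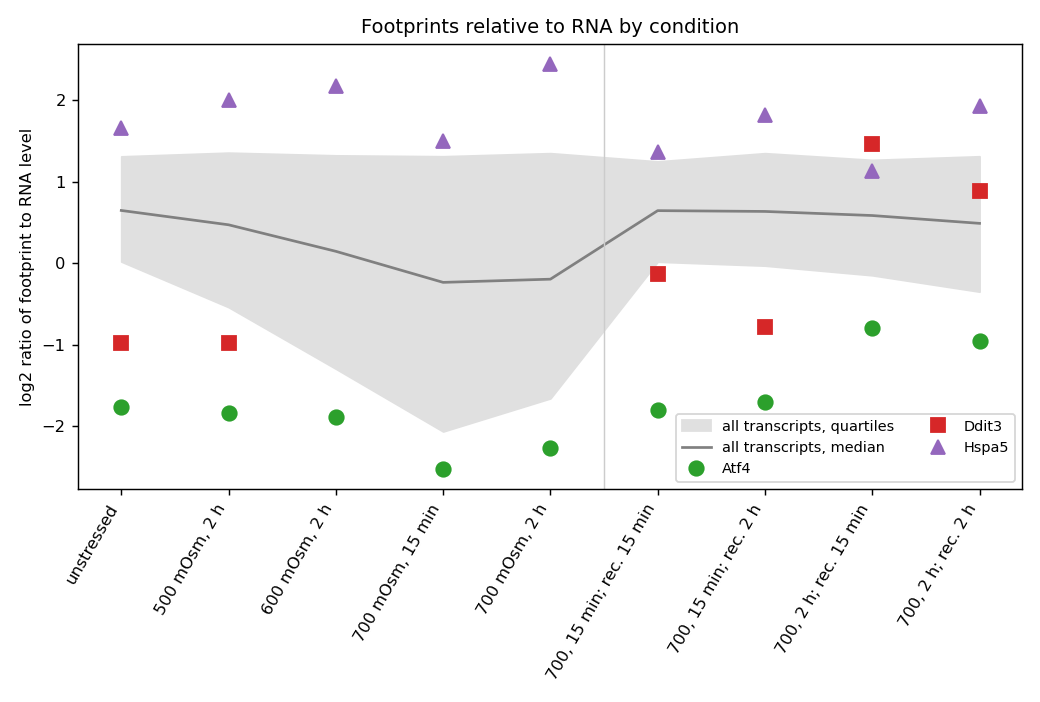
Log2 ratio of footprint to RNA level (scaled, 1 added to each) of Atf4 (green circles), Ddit3 (red squares) and Hspa5 (purple triangles) in the 9 conditions, with RNA as labelled. The grey line is the median and the grey band the quartiles over 8446 transcripts, in which unlisted footprints count as 0. Ddit3 is at -0.98 without stress and at 1.46 (early) and 0.89 (late) once the long stress has ended, and is not drawn where a library did not list it.

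Across the 9 conditions, Atf4 and Ddit3 had more alike profiles with each other than with Hspa5. The correlation of condition means (log2 of scaled value plus 1) between Atf4 and Ddit3 was 0.95 in footprints and 0.69 in RNA. That of Hspa5 was -0.12 with Atf4 and -0.14 with Ddit3 in footprints, and 0.30 and 0.20 in RNA. Ddit3 RNA had means of 5.60 to 8.15 scaled FPKM in 8 conditions and 64.2 in late recovery from the long stress. Its RNA correlations therefore rest largely on that 1 condition. By the mean of both correlations, Ddit3 was in place 125 among the 8445 other transcripts for likeness to Atf4. The transcript most like Atf4 was ENSMUST00000062015, with 1133 codons and a mean correlation of 0.94, which went from 7.80 to 8.38 scaled RPKM in unstressed cells to 15.8 to 16.3 in late recovery from the long stress. The one most like Ddit3 was ENSMUST00000040312, with 355 codons and a mean correlation of 0.96, at 3.34 to 3.72 scaled RPKM in unstressed cells and 27.2 to 28.5 after that recovery. Unlisted footprints entered these correlations as 0: Ddit3 in both 700 mOsm stresses and in 1 library at 600 mOsm, and ENSMUST00000040312 also in both 700 mOsm stresses. Over the 6 conditions in which every footprint library lists all 3 genes, a choice made after seeing the data, Atf4 and Ddit3 correlated at 0.92 in footprints and 0.87 in RNA. Over the same 6, Hspa5 correlated at 0.35 with Atf4 and 0.30 with Ddit3 in footprints, and the mean correlation of Ddit3 with ENSMUST00000040312 was 0.95. These are descriptions over few conditions whose values share libraries and scaling.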

How the data were processed

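Ribosome footprints and cytoplasmic RNA of C57BL/6J mouse embryonic fibroblasts were measured in 9 conditions, with 2 libraries per condition and assay. The authors deposited 1 list per library, in RPKM for footprints and FPKM for RNA per the file names. Per the submitters' processing notes, the tools were cutadapt, Bowtie and STAR and the build GRCm38. For their versions, the annotation and the counting of reads, the entry is: not given in the sources used here. Read numbers, totals and lengths were solved for from the deposited values, which were whole reads within a relative tolerance of 1e-09 for 100% of values in each library. Over transcripts with at least 40 reads, RNA replicates had a chi-square per degree of freedom of 3.444 to 47.08. It was highest in the unstressed pair, the reference of most RNA comparisons, and next highest in the long stress (22.97). Footprint replicates had 1.005 to 1.085. Each footprint condition therefore counts as 1 sample, with no test.

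Libraries were scaled by their median ratio to the geometric mean over the transcripts (4619 for footprints, 5705 for RNA) that every library lists and whose mean is at least 10. A mean scaled value of at least 2 was required, which kept 8849 for footprints, 9275 for RNA and 8446 for both. Footprint folds are ratios of summed reads over scaled totals with exact binomial 95% intervals, and "called" footprints are at least 2-fold different. RNA was tested by limma 3.58.1 in R 4.3.3 on log2(scaled FPKM + 1), which understates changes of low transcripts, in 1 fit over 18 libraries with a weight per condition and a mean-variance trend. Tests were two-sided, with Benjamini-Hochberg adjustment over all transcripts at 0.05. Fits were checked on simulated data. Other tools were Python 3.11.15, pandas 2.3.3 and scipy 1.17.1. The genes named are the 3 members and the transcript most like Atf4 and most like Ddit3. The members, lists and motifs were chosen with earlier results of these data known. Gene coordinates and promoters are from RefSeq on GRCm38.p6, where all 3 symbols matched. The name tables hold no Ensembl transcript identifiers, so member names come from the rule, and lists of other stress response genes, chaperones and cell type markers were not applied and the fibroblast label was not checked by markers. Alternatives were the pseudocount, filter, scaling, weights, replicate block, voom on recovered reads, the samples in the fit, and leaving out libraries.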

Additional observations from a re-analysis of the deposited data

Results flagged for a closer look

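The RNA change from stress to late recovery differed between the long and the short 700 mOsm stress in all 3 genes by a test of the difference itself. The log2 difference, long minus short, was 2.68 for Ddit3, 0.67 for Atf4 and 0.73 for Hspa5, with limma adjusted p of 4.58e-09, 5.68e-08 and 9.51e-08. Such a difference was common: of the 9275 RNAs tested, 3044 passed with a positive and 1977 with a negative one. Both libraries of late recovery from the long stress had more Ddit3 RNA and more Atf4 RNA than any other library. The difference for Hspa5 was 0.20 (adjusted p = 0.0181) when the libraries labelled early recovery after the long stress stood in for those labelled late recovery after the short stress, an alternative chosen after seeing the data. Whether the labels or the file names are right was not tested.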

How the results depend on the processing

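Depth limits the footprints of Ddit3 at 600 and 700 mOsm and of Atf4 at 700 mOsm. Of the members' RNA values under alternatives other than leaving out 1 library, 266 kept direction and side of the threshold, 5 lost the call, 7 gained one and 1 turned. With only the compared groups fitted, Atf4 (0.2594) and Hspa5 (0.3487) at 500 mOsm and Atf4 (-0.2324) and Hspa5 (0.2152) in early recovery from the short stress lost it, and the last also without the 4 libraries with exchanged names (0.2152, adjusted p = 0.0544). Atf4 at 600 mOsm passed with no filter or equal weights (-0.1358 each) and with voom (-0.1288). Voom also called Hspa5 at 600 mOsm (0.122) and in the long stress (0.1137) and Ddit3 in late recovery from the short stress (0.4802). FPKM as deposited turned Hspa5 in the long stress (-0.0806, not called) and called it against 600 mOsm (-0.1858). Footprints as deposited gave Hspa5 log2 changes of 0.7838 at 500 mOsm, 0.7579 at 600 mOsm, -0.374 in the short stress (turned), 0.3243 in the long stress, 0.0326 in late recovery from the short stress, -0.0259 for 600 against 500 mOsm, -0.4336 for the long stress against 600 mOsm (turned), 0.2247 for late recovery against the long stress (turned) and 0.3314 for early recovery against the short stress (turned). Atf4 footprints gave -1.765 in the short and -1.487 in the long stress, -1.354 for the long stress against 600 mOsm and 2.847 for late recovery against the long stress. The change in ratio as deposited was for Hspa5 0.6526 at 600 mOsm, -0.6555 in the short and 0.4049 in the long stress, -0.2477 against 600 mOsm (turned), -0.1275 for late recovery against the long stress and 0.4036 for early recovery against the short stress (turned), and for Atf4 -1.247 in the short stress and -0.8915 for the long stress against 600 mOsm. All 84 footprint and all 84 ratio values from 1 library of each condition moved from the mean of both by no more than the counting error, with the RNA error added for ratios. Leaving out 1 RNA library, whose lone partner is assumed to vary as its group did in the full fit, gave at 500 mOsm 0.2501 to 0.2686 for Atf4 and 0.2784 to 0.4189 for Hspa5, in the long stress 0.0999 to 0.5552 for Ddit3 and -0.0581 to 0.0824 for Hspa5, and in early recovery from the short stress -0.2431 to -0.2217 for Atf4, -0.276 to 0.0751 for Ddit3 and 0.145 to 0.2855 for Hspa5. It gave -0.013 to 0.3381 for Ddit3 in the libraries labelled early recovery after the long stress, -0.0945 to 0.2396 for 600 against 500 mOsm and -0.2459 to 0.2094 for the long stress against 600 mOsm. Ddit3 without long-stress replicate 1 was called (adjusted p = 0.036). The cause was not tested. Counts over all RNAs moved with the alternatives, here given with their lowest and highest value: from 144 (64 to 802) risen and 175 (85 to 847) fallen at 500 mOsm to 1286 (520 to 2279) and 768 (90 to 1857) in late recovery from the long stress. In RNA, deviations of replicate 1 from the condition mean correlated between -0.307 and 0.308 over 36 pairs of conditions, with 6 pairs above 0.1. Footprints were not checked. These correlations cannot settle whether libraries of the same replicate number were handled together. With the number as a replicate block no call of a member changed (Ddit3 3.203 and Atf4 0.5819 in late recovery from the long stress) and no count moved by 1.5 times.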
